A study of Saccharomyces cerevisiae with 22 samples.

Results

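The peaks around centromeres were those whose summit, the base of highest signal, lay within 5000 bp of the edge of 1 of the 16 nuclear centromeres and more than 200 bp from every tRNA gene. Position alone chose them, and they numbered 1785 of the 106828 peaks in 6 lists, while 23 further peaks in the same windows were left out at tRNA genes. The peaks come from ChIP-exo, in which exonuclease trims immunoprecipitated DNA back to the cross-link, carried out on Sus1 with a MYC tag in Saccharomyces cerevisiae. The authors deposited 1 list each for the wild type (SUS1-MYC::HIS3 in BY4741, Mat a), for spt7-1180 and for spt8Δ, at 25 °C and after a 15 min shift to 37 °C. All 6 lists come from the tagged background, which also carries the leu2, his3, met15 and ura3 deletions of BY4741, and both mutations are marked with KanMX4. The labels call the first mutant an spt7 deletion, whereas the study's strain table gives a truncation that removes the C-terminal part of Spt7, the part that binds Spt8. The labels name 3 replicates of each tagged condition and the study describes 2, and neither says which libraries went into a list. Each condition therefore had 1 value, with no error between replicates and no test, and every interval given is a 95% interval that covers counting error only.

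Sus1 is a small subunit shared by the deubiquitylation module of SAGA, a transcription coactivator, and by TREX-2, a complex of the nuclear pore in which Sac3, Thp1, Cdc31 and Sem1 are its partners. Cdc31 is the yeast centrin and is also found at the spindle pole body, the organelle at which the centromeres of budding yeast cluster at the nuclear periphery. A yeast centromere is a short point centromere made of 3 elements. CDEI is bound by Cbf1, CDEII is a run of A and T wrapped around a nucleosome with the histone H3 variant Cse4, and CDEIII is bound by the CBF3 complex, on which the kinetochore is built. The sequence around it holds ordinary genes and is rich in cohesin, the ring complex that keeps sister chromatids together.

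The sequences of 2 centromeres are given from RefSeq (sacCer3), read from CDEI to CDEIII, with both of these elements in capitals and CDEII in lower case. CEN13 (chr13:268031-268149, plus strand) was the only centromere with a peak summit inside it, and CEN12 (chr12:150828-150947, minus strand) had no summit within 250 bp in any list.
CEN13: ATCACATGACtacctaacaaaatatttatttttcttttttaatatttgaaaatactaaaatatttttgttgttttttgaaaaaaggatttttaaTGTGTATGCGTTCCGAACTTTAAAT
CEN12: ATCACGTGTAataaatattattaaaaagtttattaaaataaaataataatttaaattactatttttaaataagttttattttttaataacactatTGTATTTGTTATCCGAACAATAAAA
CDEII of CEN13 was 86.9% A and T, the lowest of the 16, while CEN12 had 94.1%, and the highest was CEN9 with 97.6%. The summit inside CEN13, at base 268130, lay in CDEIII and not in CDEII, and a link to composition was not tested.

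A further 3 sequences mark the sites with bases that peaks of all 6 lists covered. They are given on the plus strand of sacCer3, with the bases that peaks of at least 5 lists covered in capitals. The first lies in the coding sequence of NTH1 (chr4:451218-451318), the second in that of WBP1 (chr5:149493-149593) and the third in that of HAT1 (chr16:555357-555457). NTH1 and WBP1 are read from the minus strand and HAT1 from the plus strand.
NTH1: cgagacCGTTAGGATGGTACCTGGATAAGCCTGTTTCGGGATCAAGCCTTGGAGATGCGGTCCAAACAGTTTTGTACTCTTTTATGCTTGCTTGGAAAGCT
WBP1: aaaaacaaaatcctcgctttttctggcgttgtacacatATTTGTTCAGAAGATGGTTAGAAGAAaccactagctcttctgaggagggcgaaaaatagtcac
HAT1: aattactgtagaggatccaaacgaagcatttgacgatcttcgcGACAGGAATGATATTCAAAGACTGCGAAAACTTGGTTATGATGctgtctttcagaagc

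Peaks were denser around the centromeres than elsewhere. In the wild type at 25 °C, 297 of 16887 peaks lay in the windows, or 1.85 per kb (1.65 to 2.07) against 1.38 per kb in the rest of the 16 chromosomes, a ratio of 1.34 (1.19 to 1.50). In the wild type at 37 °C, 265 of 17694 peaks did, and the ratio of 1.14 (1.01 to 1.29) was the lowest of the 6. The spt7-1180 lists held 323 of 18085 peaks at 25 °C and 340 of 20179 at 37 °C, with ratios of 1.36 (1.22 to 1.52) and 1.28 (1.15 to 1.43). The mutant spt8Δ had 273 of 16593 peaks at 25 °C and 287 of 17390 at 37 °C, with ratios of 1.26 (1.11 to 1.42) and 1.26 (1.12 to 1.42). The 6 ratios lay above 1, but the lower bound of the wild type at 37 °C fell below 1 under several alternatives, among them leaving out CEN8, after which it was 0.987. With the 5000 strongest peaks by −log10 q of each list, the ratio of the wild type at 37 °C itself turned to 0.899 (0.682 to 1.16). By base pairs covered the windows also stood above the rest, with 11.4 to 19.3% of the windows covered against 9.94 to 14.3% of the rest.

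**Figure D1:**
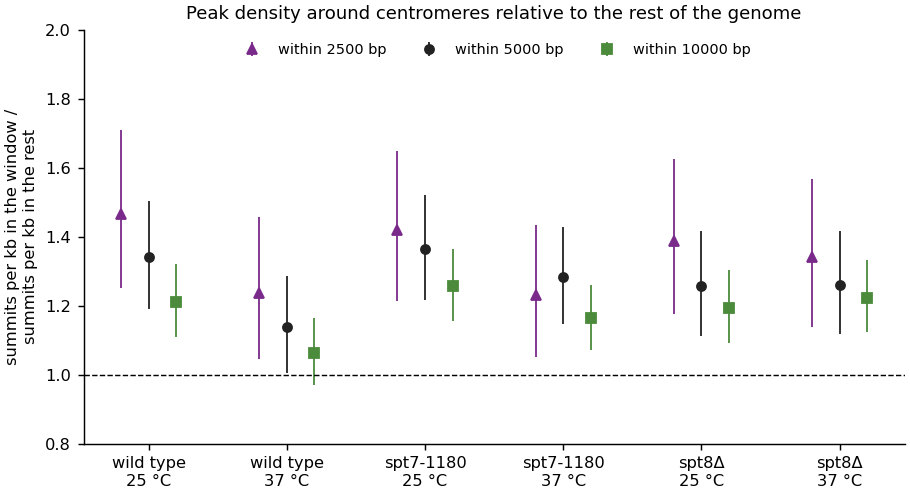
Density of peak summits within 2500, 5000 and 10000 bp of the centromeres divided by the density in the rest of the 16 chromosomes (vertical axis, ratio), for the 6 lists. Bars are exact 95% intervals of the ratio from the peak counts, and the dashed line marks equal density. The ratio within 10000 bp was below the ratio within 2500 bp in every list, and within 5000 bp it ran from 1.14 in the wild type at 37 °C to 1.36 in spt7-1180 at 25 °C.

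Neither heat nor mutation gave a difference in this ratio that exceeded counting error. From 25 °C to 37 °C it went from 1.34 to 1.14 in the wild type, a change of 0.850 times with an interval of 0.716 to 1.01. In spt7-1180 the change with heat was 0.940 times (0.804 to 1.10), and in spt8Δ it was 1.00 times (0.845 to 1.19). Relative to the wild type at the same temperature, spt7-1180 gave 1.02 times at 25 °C (0.865 to 1.20) and 1.13 times at 37 °C (0.954 to 1.33). The same comparison gave 0.937 times (0.791 to 1.11) and 1.11 times (0.931 to 1.31) for spt8Δ. The intervals of all 7 comparisons included 1. They treat the lists of a comparison as independent, although 30.6 to 59.1% of the peaks of a list were overlapped by the other. They therefore do not measure the error of the difference, and an interval that includes 1 does not show that the ratio was unchanged.

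By point values the density varied along the window. The planned classes of distance were of 1000 bp, and the spans below were not among them. In 5 lists the density relative to the rest was higher from 501 to 3000 bp than from 3001 to 5000 bp. In spt7-1180 at 37 °C it was higher in the farther span, with 2.29 per kb against 2.14 per kb. The intervals of both spans overlapped in every list, so a difference between them did not exceed counting error. From 501 to 3000 bp the density was 2.21 per kb (1.89 to 2.56) in the wild type at 25 °C and 1.87 per kb (1.58 to 2.19) at 37 °C. In spt7-1180 it was 2.29 per kb (1.97 to 2.65) at 25 °C and 2.14 per kb (1.83 to 2.49) at 37 °C, and in spt8Δ 1.94 per kb (1.65 to 2.27) and 1.99 per kb (1.7 to 2.33). These densities were 1.29 to 1.60 times that of the rest of the chromosomes in the same list. From 3001 to 5000 bp the density was 1.03 to 1.39 times the rest, and only in the 2 spt7-1180 lists did its interval lie above 1. From 5001 to 10000 bp it was 0.99 to 1.18 times the rest. In this span the interval of the density lay above the rest in spt7-1180 at 25 °C (1.49 to 1.91 against 1.48 per kb). It also did in spt8Δ at 37 °C (1.48 to 1.89 against 1.42 per kb). In both spt8Δ lists this span was denser than that from 3001 to 5000 bp. From 10001 to 20000 bp the density was 0.99 to 1.13 times the rest. Only in spt7-1180 at 25 °C did its interval there lie above the rest (1.53 to 1.82 per kb).

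**Figure D2:**
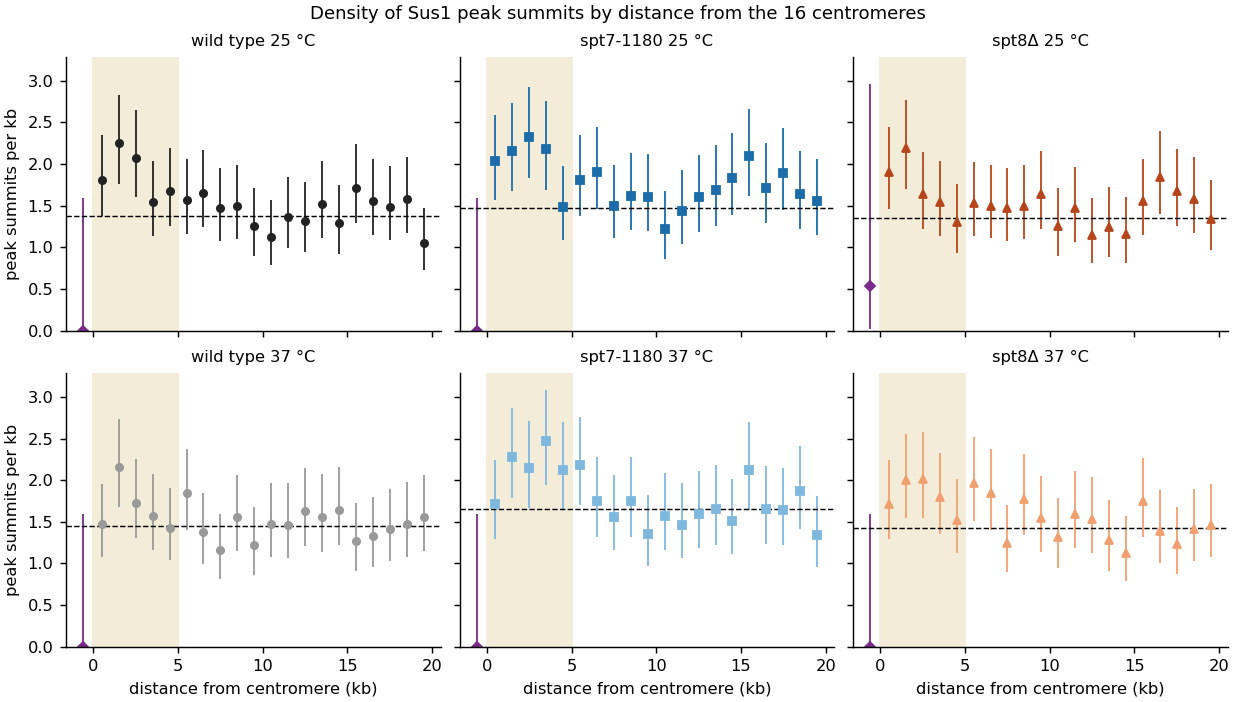
Peak summits per kb (vertical axis) by distance from the edge of the centromere in kb (horizontal axis, classes of 1000 bp, both sides of the 16 centromeres added), 1 panel for each list. Bars are exact Poisson 95% intervals, the shaded span is the 5000 bp window, and the dashed line is the density in the rest of the chromosomes. The diamond to the left of 0 is the centromere itself. Where no summit was found, its bar ends at the 1-sided limit of a count of 0 (3 summits, 1.59 per kb). The exact 95% interval would reach 1.96 per kb. The highest class of the window lay between 1001 and 3000 bp in 5 lists, and between 3001 and 4000 bp in spt7-1180 at 37 °C. With classes of 500 bp the highest of spt7-1180 at 25 °C lay between 501 and 1000 bp.

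Within 250 bp, the centromere included, each list held 10 to 12 summits, which is 1.01 to 1.21 per kb and 0.61 to 0.84 times the density of the rest, with intervals that included 1 in all 6 lists. Between 251 and 500 bp there were 10 to 18 summits in a list, or 1.25 to 2.25 per kb and 0.86 to 1.66 times the rest, again with intervals that included 1. The most were in spt8Δ at 25 °C, with 18. The sequence within 500 bp of the centromeres was 30.7% G and C and 21.6% coding, against 38.3% and 73.2% in the rest, and outside the windows, too, peaks were rarer in noncoding sequence and in sequence rich in A and T. Set against sequence outside the windows weighted to the same coding share, the density within 250 bp was 1.02 to 1.14 times that of the rest, and weighted to the same share of G and C it was 1.43 to 1.80 times, with intervals that included 1 in all 6 lists. Between 251 and 500 bp the weighted density was 0.99 to 1.94 times the rest by coding share and 1.09 to 2.16 times by G and C, and in spt8Δ at 25 °C alone the intervals lay above 1 (1.15 to 3.07 and 1.28 to 3.42). From 501 to 3000 bp, where 75.6% of the sequence was coding, the same weights gave 1.28 to 1.58 times by coding share and 1.29 to 1.60 times by G and C, with intervals above 1 in the 6 lists.

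The centromeres themselves, 1.88 kb in all, held 1 summit in the 6 lists together. It belonged to spt8Δ at 25 °C and lay in CEN13, in a peak at chr13:268087-268160 with a fold enrichment of 4.67, at percentile 84.0 of its list. The other 5 lists had none, which allows up to 1.59 summits per kb. The density of the rest was 1.38 to 1.48 per kb in 4 of these lists and 1.65 per kb in spt7-1180 at 37 °C. The latter lay just above the 1-sided limit, but the exact interval included the density of the rest in all 5. A deficit was therefore not detectable in any of them taken alone. The density of the rest would give 2.55 to 3.11 summits inside the centromeres of a list. Over the 6 lists together the density there was 0.089 per kb per list, below the rest of every list. Sites shared between lists are counted once per list, and a deficit over the lists together was not tested. Outside the windows, sequence with no more G and C within 50 bp than the highest share at any base of a centromere (28.7%) held 0.059 to 0.296 summits per kb. In spt8Δ, 3 peaks at 25 °C and 2 at 37 °C reached into a centromere and covered 75 and 39 bp of centromere sequence. These were 3.98 and 2.07% of that sequence, and in the other 4 lists no peak reached it. In the rest of the chromosomes 9.94 to 14.3% was covered.

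In all, 64 summits lay within 250 bp of 15 centromeres, 29 on the CDEI side, 34 on the CDEIII side and 1 inside, and 8 of them lay within 50 bp. The distance from a centromere to its nearest summit had a median of 242.5 bp in the wild type at 25 °C and 167.5 bp at 37 °C, 281.5 and 240.5 bp in spt7-1180, and 234.5 and 234.0 bp in spt8Δ. The longest such distance was 1666 bp, in spt8Δ at 25 °C.

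**Figure D3:**
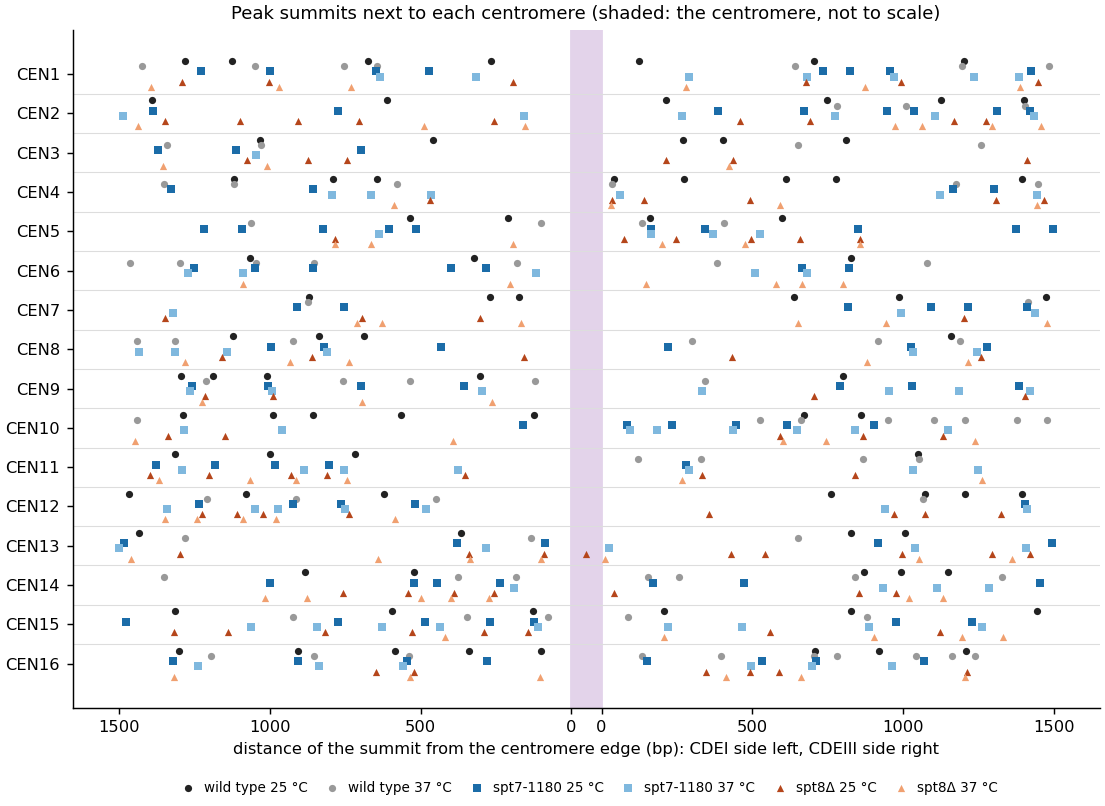
Summits within 1500 bp of each of the 16 centromeres (rows), by distance in bp from the edge of the centromere on the CDEI side (left) and the CDEIII side (right), with 1 marker for each peak and 1 colour for each list. The shaded column is the centromere and is not to scale. Markers of 5 lists stand together 31 to 62 bp from the CDEIII edge of CEN4, CEN12 has none within 250 bp, and the only marker in the shaded column is that of spt8Δ at 25 °C in CEN13.

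The closest meeting of lists at a centromere was at CEN4. Summits lay 31 bp past its CDEIII edge in spt8Δ at 37 °C, 36 bp in spt8Δ at 25 °C, 36 bp in the wild type at 37 °C, 41 bp in the wild type at 25 °C and 62 bp in spt7-1180 at 37 °C. Thus 5 of 6 lists placed summits within 31 bp of each other, and the exception, spt7-1180 at 25 °C, had none within 250 bp of CEN4. Fold enrichment at these summits, in the same order, was 2.25, 4.67, 5.20, 3.65 and 1.97, which stand at percentiles 35.5, 84.0, 85.2, 69.4 and 23.2 of their lists. A fold enrichment is relative to the background of its own list, so it was compared only within a list, here by its percentile. The site lies between CEN4 and NTH1, outside any coding sequence, and its nearest start codon is that of RMD1. No base of the site was covered in all 6 lists, and 3 bases were covered in 5.

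At CEN13 summits fell on both sides. On the CDEI side they lay 133 bp away in the wild type at 37 °C, 102 bp and 90 bp in spt8Δ at 37 °C and 25 °C, and 89 bp in spt7-1180 at 25 °C. On the CDEIII side, besides the summit inside the centromere, they lay 10 bp away in spt8Δ at 37 °C and 26 bp in spt7-1180 at 37 °C. The wild type at 25 °C had none within 250 bp of CEN13. Their fold enrichment ranged from percentile 27.9 (both spt8Δ summits at 37 °C) to percentile 85.5 (spt8Δ at 25 °C, CDEI side).

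CEN5 and CEN15 were the centromeres with a summit within 250 bp in all 6 lists. At CEN5 there were 10, the nearest 73 bp from the CDEIII edge in spt8Δ at 25 °C, and those of the wild type at 25 °C and of spt7-1180 at both temperatures lay within a few bases of each other, 162, 164 and 165 bp from it. At CEN15 there were 9, and on its CDEI side summits of 5 lists lay 79 to 144 bp from the edge, in front of or at the start of RRP6, which encodes an exonuclease of the nuclear exosome. The one of spt8Δ at 25 °C reached a fold enrichment of 5.89, percentile 94.7 of its list, and that of spt7-1180 at 37 °C reached 3.11, percentile 86.2.

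Of the other centromeres, CEN10 and CEN14 had 6 summits each within 250 bp, CEN6 and CEN16 4 each, CEN2 3, CEN1, CEN7 and CEN8 2 each, and CEN3, CEN9 and CEN11 1 each. At CEN10 the strongest was that of spt7-1180 at 37 °C, 95 bp from the CDEIII edge, with a fold enrichment of 4.11, percentile 97.1 of its list. At CEN14 the nearest lay 41 bp from the CDEIII edge in spt8Δ at 25 °C. At CEN6 those on the CDEI side lay in DEG1, a pseudouridine synthase gene, and at CEN16 the nearest, in the wild type at 25 °C, was 100 bp away, between CEN16 and HAT1.

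The CDEI and CDEIII sides of the windows were occupied alike within counting error. Counts on the CDEI side were 154 and 132 in the wild type at 25 °C and 37 °C, 181 and 174 in spt7-1180, and 148 and 151 in spt8Δ. On the CDEIII side they were 143 and 133, 142 and 166, and 125 and 136. The largest ratio, in spt7-1180 at 25 °C, was 1.25 (1.00 to 1.57), and the others lay between 0.975 and 1.16 with intervals that included 1.

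All 16 centromeres contributed. Over the 6 lists together a window held from 81 peaks (CEN3) to 140 (CEN1). At CEN1 the counts were 26 and 19 in the wild type at 25 °C and 37 °C, 28 and 26 in spt7-1180, and 18 and 23 in spt8Δ, which was on average 1.99 times the density of the rest of chromosome 1 and above it in all 6 lists. At CEN3 they were 13 and 13, 8 and 13, and 21 and 13, so that spt8Δ at 25 °C had the most and spt7-1180 at 25 °C the fewest. The density of a window exceeded that of the rest of its own chromosome in all 6 lists at 7 centromeres, in 5 lists at 7 and in 4 lists at CEN3 and CEN7, and the average ratio was lowest at CEN7, 1.06.

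**Figure D4:**
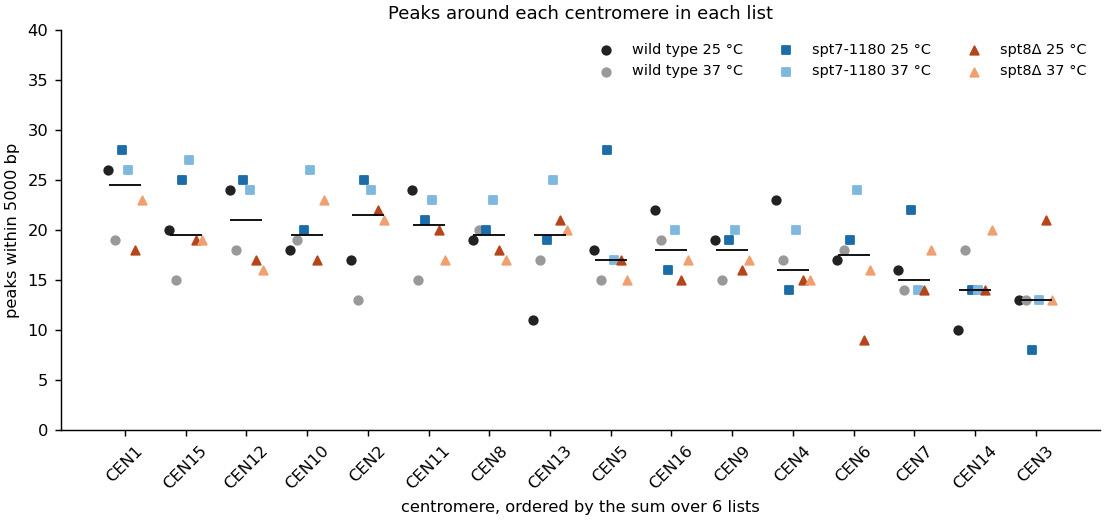
Number of peaks within 5000 bp of each centromere (vertical axis) in each of the 6 lists (markers), with the median of the 6 as a bar, ordered by the sum over the lists (horizontal axis). Counts run from 8 (CEN3, spt7-1180 at 25 °C) to 28 (CEN1 and CEN5, spt7-1180 at 25 °C).

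The spread among centromeres was near that of counting in some lists and below it in others. In the wild type at 25 °C the mean was 18.6 peaks ± 4.63 (SD, n = 16 centromeres), where counting alone gives an SD of 4.31, and at 37 °C it was 16.6 ± 2.28 where counting gives 4.07. For spt7-1180 the SD was 5.43 and 4.60 at the lower and higher temperature, and for spt8Δ 3.30 and 2.86, against 4.13 to 4.61 from counting in these 4 lists.

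In strength the peaks around centromeres were near the others of their list. Their median fold enrichment was 3.23 (3.06 to 3.40) in the wild type at 25 °C, against 3.14 for the other peaks of the list, and 3.44 (3.30 to 3.58) against 3.47 at 37 °C. In spt7-1180 it was 2.76 (2.63 to 2.84) against 2.66 at 25 °C and 2.42 (2.34 to 2.52) against 2.33 at 37 °C. In spt8Δ it was 3.56 (3.39 to 3.78) against 3.29 at 25 °C and 2.51 (2.45 to 2.61) against 2.45 at 37 °C. The median was thus 0.991 to 1.08 times that of the other peaks, and it was highest relative to them in spt8Δ at 25 °C. There 43 of 273 peaks, or 15.8%, reached the top 10% of the list. This share was 14.1% in spt7-1180 at 37 °C and 12.1% in both spt7-1180 and the wild type at 25 °C. It was 10.5% in spt8Δ at 37 °C and 8.30% in the wild type at 37 °C. Median widths were 49 to 75 bp around centromeres and 49 to 71 bp elsewhere. The best rank of any of them by fold enrichment was 30, in spt8Δ at 25 °C.

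The peaks around centromeres stood on a lower background. When height and background of each peak were solved from its deposited fold enrichment and −log10 p, the background was at the lowest value of the list (within 1%) for 64.2 to 71.5% of the peaks around centromeres and for 42.4 to 47.5% of the others. Their median height was 26 to 95 reads, against 28 to 99 for the others of the same lists. The windows also had less repeated sequence, since 0.659% of their bases lay in runs of 32 bases that occur elsewhere in the 16 chromosomes, against 6.35% of the rest. Restricted to sequence that occurs once, the density ratio was 1.27, 1.08, 1.28, 1.21, 1.19 and 1.19 in the wild type, spt7-1180 and spt8Δ, each at 25 °C and then 37 °C, and the interval of the wild type at 37 °C then included 1. The part of the lower background in the higher density was not tested.

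Most summits around centromeres lay in genes. From 80.0 to 84.8% were in coding sequence, as against 80.8 to 85.1% of the other summits. In coding sequence alone the density was 1.92 to 2.59 per kb around centromeres and 1.51 to 1.92 per kb elsewhere, which is 1.20 to 1.45 times with intervals above 1 in the 6 lists. In the 500 bp upstream of start codons 20 to 29 summits of a list were found, and there the ratio ran from 0.795 to 1.46 with intervals that included 1. The share of G and C within 50 bp of a summit had a median of 38.6 or 39.6% around centromeres and of 39.6 or 40.6% elsewhere.

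The windows touched 101 protein-coding genes, and 83.2 to 87.1% of them held a summit between start and stop codon, against 71.8 to 77.1% of the other 5901 genes. Their median length was 1.16 kb against 1.20 kb for the others. Of the 101 genes, 65 held a summit in all 6 lists and 19 in 5. RER1, which encodes a retrieval receptor of the Golgi, held none in any list. The other gene without any was YFL002W-A, a Ty element reading frame of which only the last bases touched the window of CEN6. Genes with roles in chromosome segregation and at the nuclear pore were picked for these roles after the values were seen, and they are given as examples. MCD1 (1.701 kb), the kleisin subunit of cohesin beside CEN4, held 2 to 4 summits. CDC5 (2.118 kb), the polo kinase beside CEN13, held 3 to 7. SFI1 (2.841 kb), a spindle pole body component near CEN12 that binds Cdc31, held 4 to 9. Gene counts run from start to stop codon, also where a gene reaches past the window. Most of SFI1 (chr12:143201-146041) lay more than 5000 bp from CEN12, so its count is not one of peaks around centromeres. The nucleoporin genes NUP60 (1.62 kb), beside CEN1, and NIC96 (2.52 kb), beside CEN6, held 4 to 7 and 4 to 11. The 5 genes held summits in all 6 lists, as most genes of the windows did. HTA2, HTB2 and CDC10 were looked at with them, and HTB2 held none in the wild type at 37 °C. The examples do not cover all genes of the windows. Among those left out, CDH1 (1.701 kb) held 1 to 4 summits, and YPI1 (0.468 kb) held a summit in 1 list only. Counts of single genes were not divided by length, so they do not show a gene above the others of the windows. Per kb of gene, all genes of the windows together held 1.84 to 2.52 summits and the other genes 1.50 to 1.90.

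Peaks of different lists were joined where they overlapped by at least 1 bp, which gave 612 joined regions around the centromeres. Of these, 206 held a peak of 1 list, 128 of 2, 93 of 3, 74 of 4, 79 of 5 and 32 of all 6. The classes of 1 to 5 lists were 33.7, 20.9, 15.2, 12.1 and 12.9% of the 612. Over the whole genome the same classes were 41.8, 21.5, 14.4, 10.4 and 7.13% of the joined regions. The 32 regions were 5.23% of the 612, and over the whole genome 4.83% of 40452 joined regions held all 6 lists. They were chains in which neighbouring peaks overlapped, 145 to 776 bp long, and just 3 of them had a base that peaks of all 6 lists covered, in NTH1, WBP1 and HAT1, while 10 had a base covered by at least 5. Base by base, 0.033% of the windows was covered in all 6 lists against 0.132% of the rest, and 3.02% in 4 lists against 2.03%.

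The 32 regions lay next to 15 of the 16 centromeres, CEN6 being the exception, and 23 of them were 501 to 3000 bp from the centromere. In 31 the median summit was in coding sequence, and in the other the nearest start codon was that of NHP10, a subunit of the INO80 chromatin remodeller. The regions carried the names of 27 genes, NHP10 included, since NTH1, WBP1, INP51, PAP1 and RRP6 had 2 each. The percentile of fold enrichment, averaged over lists with the strongest peak of each, had a median of 67.4 over the regions and ran from 42.5 to 92.1, and it was above 50 in each of the 6 lists for only 4 of them. The strongest peak of a list is high by its choice among several, so these percentiles are a description and carry no comparison.

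**Figure D5:**
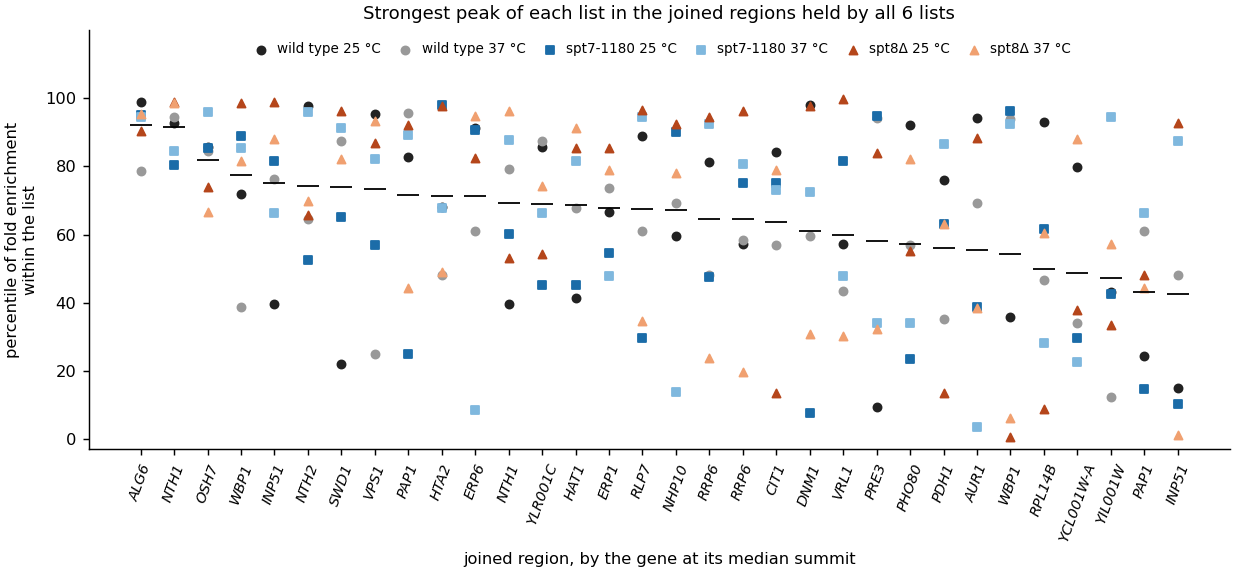
Percentile of fold enrichment within the list (vertical axis) of the strongest peak of each of the 6 lists (markers) in the 32 joined regions held by all lists, named by the gene at the median summit and ordered by the mean (bar). The means run from 92.1 (ALG6) to 42.5 (INP51), and most regions have lists both above and below percentile 50.

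The region in NTH1, the neutral trehalase that breaks down the stress sugar trehalose, was the one in which the lists met most fully. It spans chr4:451057-451423, 1300 to 1577 bp from CEN4 on the CDEIII side. Its strongest peak had a fold enrichment of 5.10 in the wild type at 25 °C and 6.58 at 37 °C, 3.4 and 3.05 in spt7-1180, then 8.12 and 5.25 in spt8Δ. Within their lists these stood at percentiles 92.8, 94.7, 80.4, 84.5, 98.9 and 98.5. All 6 were thus at a percentile of at least 80.4, and peaks of all 6 lists covered 38 bases of the sequence printed above. A second region of NTH1, at chr4:451479-451697, also held 6 lists, with 2.89 and 4.75 in the wild type, 2.87 and 3.18 in spt7-1180, then 3.39 and 4.28 in spt8Δ. In the same order these stood at percentiles 39.5, 79.3, 60.2, 87.7, 53.2 and 96.4. The paralogue NTH2 lies beside CEN2 in the same orientation to its centromere. Its region at chr2:239230-239641, 948 to 1310 bp away, gave 6.28 and 4.01, 2.71 and 3.86, and 3.78 and 2.81. These stood at percentiles 97.8 and 64.6, 52.4 and 96.0, and 65.8 and 69.7.

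In WBP1, a subunit of the oligosaccharyltransferase, the region at chr5:149293-149802 lay 2189 to 2644 bp from CEN5. Its fold enrichment was 3.74 in the wild type at 25 °C and 3.15 at 37 °C, 3.83 and 3.09 in spt7-1180, and 7.78 and 3.14 in spt8Δ. Within their lists these stood at percentiles 71.8, 38.8, 89.0, 85.4, 98.8 and 81.7. Peaks of all lists covered 2 bases. In HAT1, the catalytic subunit of a histone acetyltransferase, the region at chr16:555275-555478 lay 523 to 649 bp from CEN16. Its values were 2.94 and 4.16, 2.58 and 2.95, and 4.78 and 3.62 in the same order, with 13 bases covered in all lists. Their percentiles were 41.4 and 67.8, 45.1 and 81.5, and 85.5 and 91.4.

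Of the joined regions held by at least 3 lists, 278 in number, the highest average percentiles were those of ALG6 (92.1), NTH1 (91.6), AVT1 (86.2), AIM34 (86.0) and CUL3 (84.1). ALG6 encodes a glucosyltransferase of the N-glycosylation pathway, and its region at chr15:330295-330678, 3614 to 3957 bp from CEN15, had 6.96 and 4.73 in the wild type, 4.39 and 3.65 in spt7-1180, and 5.23 and 4.09 in spt8Δ. AVT1, a vacuolar amino acid transporter gene beside CEN10, held peaks of 3 lists. They had 4.93 in the wild type at 25 °C (percentile 91.4), 2.65 in spt7-1180 at 37 °C (68.6) and 7.45 in spt8Δ at 25 °C (98.5). The region before the start codon of AIM34, beside CEN13, held 4 lists, all but those of the wild type and of spt8Δ at 25 °C. In CUL3, a cullin gene beside CEN7, the summits of 3 lists lay within 20 bp of each other, 73 bp after the start codon. They had 4.93 in the wild type at 25 °C (percentile 91.4), 4.45 in spt8Δ at 25 °C (80.8) and 3.08 in spt8Δ at 37 °C (80.1).

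The remaining regions held by all 6 lists lay in genes of varied roles. In chromatin and RNA they were HTA2 (histone H2A), SWD1 (a COMPASS subunit), PAP1 (poly(A) polymerase), RRP6, RLP7 (ribosome biogenesis) and RPL14B (a ribosomal protein). In membranes and trafficking they were VPS1 and DNM1 (both dynamin-related GTPases), OSH7 (a lipid transfer protein), ERP1 and ERP6 (p24 proteins), INP51 (a phosphoinositide phosphatase) and AUR1 (inositol phosphorylceramide synthase). The others were PRE3 (a proteasome subunit), CIT1 (citrate synthase), PHO80 (a cyclin), PDH1, VRL1, YCL001W-A, YIL001W and YLR001C. In the wild type at 25 °C and 37 °C, VPS1, beside CEN11, had 5.52 and 2.72, at percentiles 95.3 and 25.0 of their lists. DNM1, beside CEN12, had 6.37 and 3.83 (percentiles 98.0 and 59.6), and PRE3 had 2.12 and 6.45 (percentiles 9.5 and 94.2). These are examples from single lists, and a change with heat was not tested.

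The strongest peak around centromeres differed from list to list. It lay in ALG6 in the wild type at 25 °C (6.96) and in PET8, a mitochondrial carrier gene beside CEN14, at 37 °C (8.31). In spt7-1180 it lay in CUL3 at 25 °C (5.90, 4599 bp from CEN7) and in VPS1 at 37 °C (5.23, 887 bp from CEN11). In spt8Δ it lay in VRL1 at 25 °C (11.5, 1534 bp from CEN13) and in MRX12, beside CEN10, at 37 °C (5.39). All 6 lay in coding sequence and at percentiles 98.5 to 99.7 of their lists, and no gene led in more than 1 list.

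Overlap between lists was compared with that over all peaks more than 200 bp from tRNA genes. Between temperatures, 91 of 297 wild-type peaks at 25 °C (30.6%, Wilson interval 25.7 to 36.1%) were overlapped by a peak at 37 °C, against 34.4% of all peaks, and 92 of 265 at 37 °C (34.7%) were overlapped by one at 25 °C, against 33.1%. In spt7-1180 it was 191 of 323 (59.1%, 53.7 to 64.4%) against 51.4%, and 184 of 340 in the reverse direction (54.1%, 48.8 to 59.3%) against 45.3%. In spt8Δ it was 117 of 273 (42.9%) against 40.3%, and 107 of 287 (37.3%) against 37.5%. The spt7-1180 lists are the ones whose peaks around centromeres were shared between temperatures more often than all peaks, beyond counting error.

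Between strains at 25 °C, 148 of 297 wild-type peaks (49.8%, 44.2 to 55.5%) were overlapped by a peak of spt7-1180, against 42.6% of all, and 143 of 323 in reverse (44.3%) against 39.6%. For spt8Δ it was 113 of 297 (38.0%) against 34.4%, and in reverse 112 of 273 (41.0%, 35.4 to 46.9%) against 35.3%. At 37 °C, 132 of 265 wild-type peaks (49.8%) were overlapped by spt7-1180, against 44.5%, and 132 of 340 in reverse (38.8%) against 37.8%. For spt8Δ at 37 °C it was 118 of 265 (44.5%) against 39.4%, and 113 of 287 in reverse (39.4%) against 39.1%. In 12 of the 14 directions the share was higher around centromeres than over all peaks, and in 4 the interval lay above the latter. Each pair of lists was counted both ways, so the directions are not independent. For spt8Δ at 25 °C overlapped by the wild type the margin was slight, with a lower bound of 35.35% against 35.33%. Overlap by position alone also rises with the share of sequence covered, and that share was larger in the windows than in the rest in all 6 lists.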

How the data were processed

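Sus1-MYC was mapped by ChIP-exo. According to the methods of the study and the notes of the submitters, the authors mapped reads with BWA (0.6.2 in the notes, another version in the methods) to sacCer3, with base calls from CASAVA 1.7. The 6 deposited lists give positions, summits, a ratio (the fold enrichment over local background, at the summit) and the −log10 of p and q, as the authors' caller wrote them. Their q-values were under 0.05. Which caller and control were used, and how replicates were combined, is not given in the sources used here. Lists were assigned by their peak names. Libraries without the tag were not analysed here, so the background of the tag at these sites was not compared.

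Chromosome lengths fitted RefSeq R64, which gave the 16 centromeres, 275 tRNA genes and 6002 genes. Sequence within 200 bp of tRNA genes was left out of counts and lengths. Intervals were exact (conditional binomial for ratios, Poisson for densities), Wilson for shares and binomial order statistics for medians. Heights were solved under a Poisson model with a pseudocount of 1, and at least 99.99% came out within 0.05 of a whole number. The lowest background of a list ranged from 5.98 to 36.3 reads, so lists differ in depth, and a missing peak is not a measured loss. Regions named were those held by all 6 lists, the 5 of highest mean percentile among those held by 3 or more, every peak within 250 bp of a centromere, and the strongest of each list. Members and lists were chosen with earlier results of these data known. Weights of distance classes by composition, low GC sequence, sequence that occurs once and leaving out each centromere were added after seeing the data. Python 3.11.15, numpy 2.4.6, pandas 2.3.3, scipy 1.17.1 and matplotlib 3.10.9 were used, and the counting was tested on simulated data.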

Additional observations from a re-analysis of the deposited data

How the results depend on the processing

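Of 142 values recomputed under an alternative, 129 stayed within their interval or within 1.5 times the count. With the 5000 strongest peaks by −log10 q, the density ratio of the wild type at 37 °C turned to 0.899 (0.682 to 1.16), while it was 1.48 in spt7-1180 at 37 °C and 1.51 in spt8Δ at 25 °C. Over 17 alternatives the ratio ran from 0.899 to 1.24 in the wild type at 37 °C, where the interval lay above 1 in 8 of 16 that had one, and in each other list all 16 intervals did. Leaving out 1 centromere gave 1.12 to 1.16 in the wild type at 37 °C and 1.23 to 1.42 in the others. The density within 250 bp, weighted by GC content, was 1.43 and 1.46 times the rest in the wild type at 25 °C and 37 °C, 1.43 and 1.45 for spt7-1180, then 1.53 and 1.80 for spt8Δ. The ratio of medians in the wild type at 37 °C was 0.919 with −log10 q. Regions held by all 6 lists numbered 2 of 1170 with a reciprocal overlap of 50%, 19 of 321 in a 2500 bp window and 71 of 1162 in a 10000 bp window, since wider windows hold more regions. The cause of the other changes was not tested. No paired analysis was possible because each condition has 1 list and the columns carry no replicate numbers. Depth limits what a missing peak shows, since lists differ in background, and a count of 0 in the centromeres allows up to 1.59 summits per kb.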
